A study of Mus musculus with 12 samples.

Results

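The genes described here are 9 transcription factors of 2 families, the interferon-regulatory factors Irf1, Irf2, Irf5, Irf7, Irf8 and Irf9 and the signal transducers and activators of transcription Stat2, Stat3 and Stat5a. They were chosen by name: every array probe whose RefSeq transcript belongs to one of these symbols was taken, which gave 15 probes for the 9 genes, out of 13283 named genes tested. All 15 probes were well above background on all 12 arrays, so all 9 genes passed the filter on dim probes. Irf1, Irf7, Irf9, Stat2, Stat3 and Stat5a had 2 probes each and the others 1, and the brighter probe stood for the gene.

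One-colour Agilent arrays were used to measure RNA levels in macrophages taken from the abdominal cavity of C57/BL6 mice and kept in DMEM with serum. The 4 groups of 3 arrays each were GPR15 knockout cells given LPS (KO LPS), GPR15 knockout cells given PBS (KO PBS), wild-type cells given LPS (WT LPS) and wild-type cells given PBS (WT PBS). LPS, a bacterial cell-wall lipid, was given at 100 ng/ml for 4 h. GPR15 is a G protein-coupled receptor known for guiding T cells to the gut, and the labels do not say how the allele was made, how old the mice were or whether replicates came from separate mice, so the p-values measure the spread between these arrays, which may be technical.

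LPS acts on macrophages through the receptor TLR4. One branch of its signal activates IRF3 and induces interferon-beta, and interferon-beta then acts on the same cells through its receptor and the kinases JAK1 and TYK2, which lead to the complex ISGF3, with STAT2 and IRF9 among its subunits. ISGF3 binds the interferon-stimulated response element (ISRE) of antiviral genes and of Irf7, whereas dimers of STAT3 or STAT5 bind gamma-activated sites (GAS).

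The arrays lay on 2 slides with a scan each. On slide 2 were the 3 KO LPS arrays with KO PBS replicate 3, and on slide 1 the other KO PBS arrays with the 6 arrays of WT cells, so KO and WT cells after LPS shared no slide. The share of spots well above background ran from 48.8% to 57.1% over the arrays, 0 spots were saturated, and the number of arrays limits the precision. The probe of Gpr15 was well above background on 0 of 6 KO and 0 of 6 WT arrays and could not check the genotype. Xist was well above background on 0 of 6 KO and 6 of 6 WT arrays, and the Y-linked Ddx3y, Kdm5d and Uty on 6 of 6 KO and 0 of 6 WT arrays (Eif2s3y on 6 and 1), so sex and genotype cannot be told apart here. The macrophage label was checked with 8 markers, all well above background on every array, whose summed level (signal relative to the 75th percentile) was 632 to 653 in KO LPS, 646 to 724 in KO PBS, 631 to 704 in WT LPS and 641 to 681 in WT PBS cells. Cd14, which rose with LPS, held 57.9% of that sum in KO LPS, 38.4% in KO PBS, 64.6% in WT LPS and 46.1% in WT PBS cells. Of the 8, 6 were called lower with LPS in each genotype, beside 32.0% of all genes in KO and 31.0% in WT cells. With LPS 1 of the 8 was called higher in KO and 2 in WT cells. After LPS 3 of the 8 were called higher in KO than in WT cells and 1 lower, beside 20.0% and 19.5% of all genes. The 1 lower was Fcgr1, an Fc receptor gene, at -1.98 ± 0.35 (adjusted p = 0.00166). The sums of 7 T-cell markers were 8.47 to 9.55 in KO LPS, 17.3 to 18.3 in KO PBS, 10.5 to 10.9 in WT LPS and 19.3 to 24.7 in WT PBS cells. Without Cd2, which fell with LPS in both genotypes, they were 6.04 to 6.58 in KO LPS and 7.22 to 7.88 in KO PBS cells. In WT cells they were then 6.83 to 7.61 with LPS and 8.22 to 9.24 in PBS. Of the 7 genes, 5 were not called with LPS in KO cells, where 67.0% of all genes were called. The sums of B-cell, dendritic-cell and mast-cell markers stand beside Irf8.

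A level is given as the log2 of the processed signal minus the log2 of the array's 75th percentile, so that a level of 0 equals that percentile. Levels of different probes are not comparable, so the marker sums weigh bright probes more and are compared only between groups. The ± gives the standard error of a log2 difference in the limma model, with 3 arrays per group, and a gene is called at an adjusted p below 0.05 over all 13283 genes. In RNA from mixed cells, fewer cells of a type and less RNA per cell cannot be told apart.

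Irf7, Irf9 and Stat2, which are 2 subunits of ISGF3 and a factor gene among its known targets, shared 1 pattern. All 3 genes were higher in KO than in WT cells in PBS and lower in KO than in WT cells after LPS, and the LPS response of each was smaller in KO cells. Of all 13283 genes, 152 (1.14%) were called higher in KO cells in PBS and lower after LPS, and of the 9 factors 3 were.

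Irf7 encodes the factor that amplifies the production of type I interferons. Its level was 6.90, 6.94 and 6.74 on the KO LPS arrays, 6.27, 6.03 and 6.17 on the KO PBS arrays, 7.84, 7.98 and 7.69 on the WT LPS arrays and 5.62, 5.60 and 5.62 on the WT PBS arrays. The 4 groups did not overlap: WT LPS was highest, KO LPS next, then KO PBS, and WT PBS lowest. LPS raised Irf7 by 0.70 ± 0.08 in KO cells, or 1.62-fold (adjusted p = 1.1e-05), and by 2.22 ± 0.08 in WT cells, or 4.67-fold (adjusted p = 9.5e-10). The interaction, which is the LPS response in KO cells less that in WT cells, was -1.52 ± 0.11 (adjusted p = 2.4e-05). KO cells were higher than WT cells by 0.55 ± 0.08 in PBS (adjusted p = 0.00126) and lower after LPS at -0.98 ± 0.08, or 1.97-fold (adjusted p = 1.5e-05). The second Irf7 probe gave an interaction of -1.70 ± 0.12, a KO minus WT difference of 0.58 in PBS and one of -1.11 after LPS, all called over the 28827 kept probes.

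Stat2 encodes the ISGF3 subunit that carries the activation domain of the complex. Its level was 4.04, 4.01 and 3.82 on the KO LPS arrays, 3.71, 3.64 and 3.71 on the KO PBS arrays, 4.71, 4.76 and 4.46 on the WT LPS arrays and 3.33, 3.27 and 3.24 on the WT PBS arrays. The order of the groups was that of Irf7, again with no overlap. The LPS response was 0.27 ± 0.08 in KO cells (adjusted p = 0.00982) and 1.37 ± 0.08 in WT cells, or 2.58-fold (adjusted p = 2.9e-08), with an interaction of -1.09 ± 0.11 (adjusted p = 1.1e-04). The call in KO cells was lost with the slide as a term (0.24, adjusted p = 0.0981), with quantile normalization (0.15) and with the mean of both probes (0.18). KO cells were higher than WT cells by 0.41 ± 0.08 in PBS (adjusted p = 0.00648) and lower after LPS at -0.69 ± 0.08 (adjusted p = 1.3e-04). On the second Stat2 probe the interaction was -1.21 ± 0.23, while the LPS response in KO cells (0.10) and the difference in PBS (0.52, adjusted p = 0.0656) were not called.

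Irf9 encodes the DNA-binding subunit of ISGF3. Its level was 3.91, 3.96 and 3.91 on the KO LPS arrays, 3.55, 3.43 and 3.63 on the KO PBS arrays, 4.15, 4.25 and 4.16 on the WT LPS arrays and 3.30, 3.27 and 3.33 on the WT PBS arrays. The groups stood in the order seen for Irf7 and did not overlap, with smaller steps. LPS raised Irf9 by 0.39 ± 0.05 in KO cells (adjusted p = 6.0e-05) and by 0.89 ± 0.05 in WT cells (adjusted p = 4.6e-08), and the interaction was -0.50 ± 0.08 (adjusted p = 0.00223). The KO minus WT difference was 0.24 ± 0.05 in PBS (adjusted p = 0.0138) and -0.26 ± 0.05 after LPS (adjusted p = 0.00363). The call in PBS was lost without WT PBS replicate 1 (adjusted p = 0.0513) or 2 (adjusted p = 0.0535) and in a fit of the compared groups alone (adjusted p = 0.0823). The second probe gave 0.22 in PBS (adjusted p = 0.0942, not called) and -0.30 after LPS (called).

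**Figure D1:**
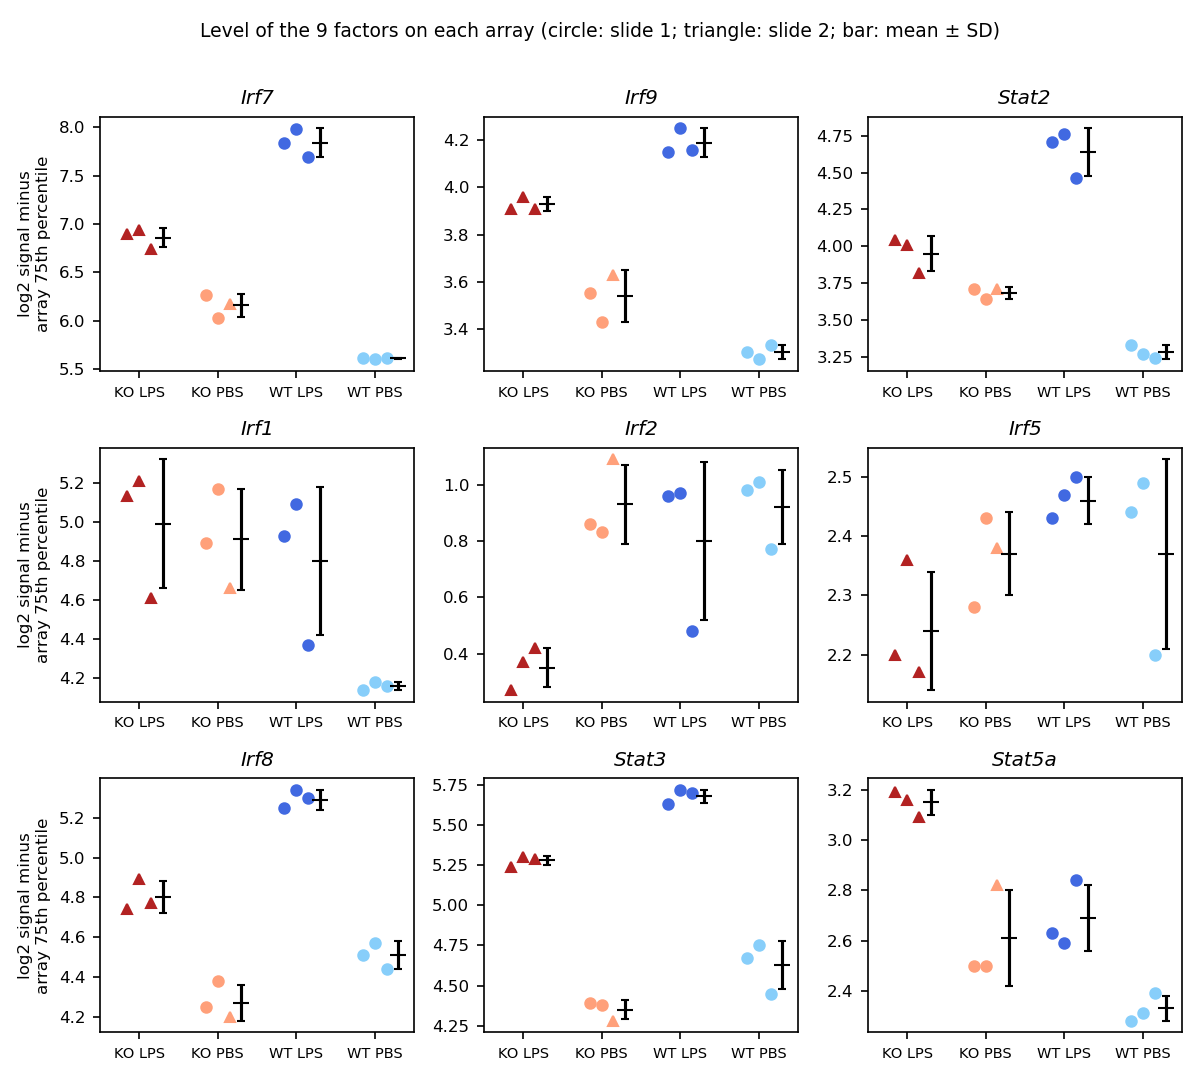
Level of each of the 9 factors on each array (y axis, log2 signal minus the array's 75th percentile; each panel has its own scale) in KO LPS, KO PBS, WT LPS and WT PBS cells. Circles are slide 1, triangles slide 2, and bars the mean ± SD of 3 arrays; Irf7, Irf9 and Stat2 have WT LPS highest and WT PBS lowest with the 2 KO groups between them.

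The genotype results were set against the slides, since only PBS cells of both genotypes shared one. On slide 1 alone, with 2 KO PBS and 3 WT PBS arrays, KO minus WT was 0.54 for Irf7 (adjusted p = 0.0163) and 0.39 for Stat2 (adjusted p = 0.0346), both called, and 0.19 for Irf9 (adjusted p = 0.0726), not called. With the slide as a term, which rests on KO PBS replicate 3 to link the slides, KO minus WT after LPS was -0.99 for Irf7 (adjusted p = 0.00634), -0.73 for Stat2 (adjusted p = 0.0193) and -0.41 for Irf9 (adjusted p = 0.0182). The interaction was then -1.54, -1.12 and -0.60, in the same order of genes. All 3 interactions were called under all 22 alternatives run.

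The upstream windows of Irf7 and Stat2 are shown because these genes moved together and differ in the elements their windows hold. Windows of 250 bases before and 50 after each annotated start, from the RefSeq promoter table of build GRCm38.p6, were searched on both strands for an ISRE (TTTC, any 2 bases, TTTC), a GAS (TTCNNNGAA) and the NF-kB consensus. The 9 genes had 13 windows. The 250 upstream bases of Stat2 lie at chr10:128270248-128270497 on the plus strand and those of Irf7 at chr7:141266425-141266674 on the minus strand, and capitals mark the matches.
Stat2: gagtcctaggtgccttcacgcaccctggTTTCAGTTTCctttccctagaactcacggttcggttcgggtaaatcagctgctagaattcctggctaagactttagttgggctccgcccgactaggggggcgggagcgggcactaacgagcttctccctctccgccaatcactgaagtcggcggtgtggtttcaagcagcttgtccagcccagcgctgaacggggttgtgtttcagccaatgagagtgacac
Irf7: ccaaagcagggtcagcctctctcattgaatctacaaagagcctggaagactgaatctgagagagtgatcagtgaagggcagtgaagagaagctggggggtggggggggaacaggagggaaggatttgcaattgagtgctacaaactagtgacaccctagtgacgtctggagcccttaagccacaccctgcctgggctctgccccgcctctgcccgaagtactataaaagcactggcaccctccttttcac
The Stat2 window held 1 ISRE at bases -222 to -213 from the start, and the Irf7 window held no match, which says only that these letters are not in it. Both Irf9 windows were also without a match. An ISRE was found in 3.44% of all 32851 windows of this length, in 2 of the 13 windows of the 9 factors and in 10 of 19 windows of ISGF3 target genes. A match describes the sequence and does not show that a factor binds there.

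The targets of ISGF3 were described with a list of 20 antiviral genes. It was chosen with earlier results of these data known, so its counts are a description and not an independent test. Of the 20 genes 18 were measured, and Mx1 and Mx2 had no probe matched to them. In KO cells 16 rose with LPS, 0 fell and 2 were not called, at a median change of 0.67, and in WT cells all 18 rose, at a median of 2.54. Over all genes the medians were 0.04 in KO and 0.03 in WT cells, and 35.1% and 33.7% rose. All 18 were higher in KO than in WT cells in PBS (median 0.76) and lower after LPS (median -0.89), and all 18 interactions were called lower, at a median of -1.57 against -0.01 over all genes. Of all genes, 8.06% were higher in PBS, 19.5% lower after LPS and 3.39% lower for the interaction. Of the 18, 15 were called higher in KO cells in PBS on slide 1 alone and 0 lower (median 0.67). After LPS 16 were lower in KO cells with the slide as a term and 2 not called (median -0.96), and all 18 interactions were lower (median -1.67).

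Isg20, an exonuclease gene of this list, had levels of 4.28, 4.34 and 4.37 in KO LPS, 3.12, 2.94 and 3.17 in KO PBS, 5.47, 5.55 and 5.39 in WT LPS and 2.51, 2.55 and 2.59 in WT PBS cells, with an interaction of -1.67 ± 0.09 (adjusted p = 7.3e-06). Its groups stood apart in the order of Irf7. Oas3, which makes the second messenger that activates RNase L, had an interaction of -2.02 ± 0.12 (adjusted p = 7.5e-06), and Xaf1, a pro-apoptotic interferon-induced gene, one of -1.48 ± 0.09 (adjusted p = 7.7e-06). Cxcl10, a T-cell chemokine, rose by 2.70 ± 0.13 in KO and 4.72 ± 0.13 in WT cells, and was higher in KO cells by 1.56 ± 0.13 in PBS (adjusted p = 3.5e-05). After LPS it was lower in KO cells at -0.46 ± 0.13 (adjusted p = 0.0155), a call lost with the slide as a term (-0.15, adjusted p = 0.73).

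**Figure D2:**
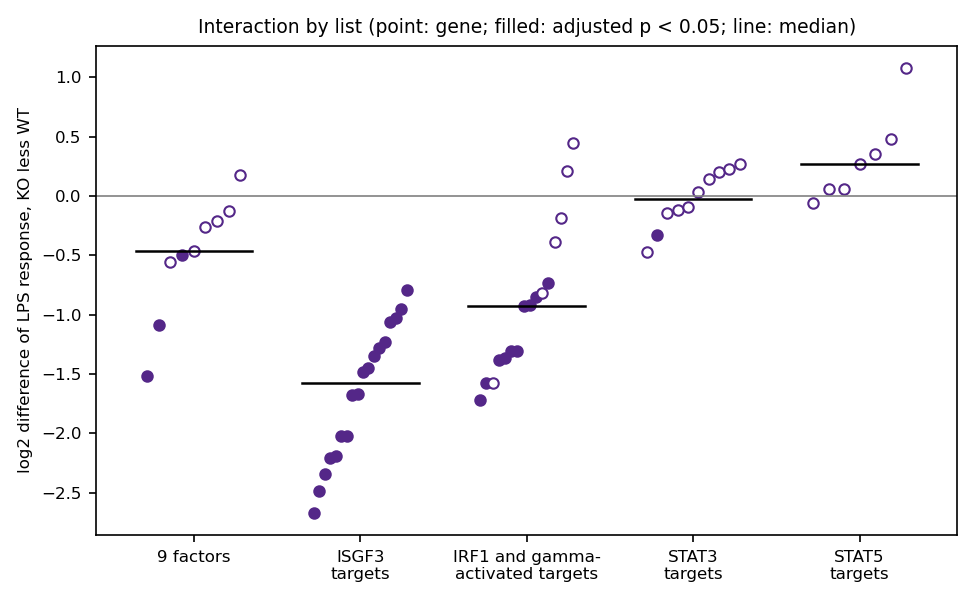
Interaction of each gene (y axis, log2 LPS response in KO cells less that in WT cells) for the 9 factors and for the targets of ISGF3, of IRF1 and gamma-activated sites, of STAT3 and of STAT5. Each point is 1 gene, filled where the adjusted p is below 0.05, and lines are medians. All 18 ISGF3 targets lie below 0 and are filled, whereas 1 of 10 STAT3 and 0 of 7 STAT5 targets are filled. The lists were chosen with earlier results of these data known.

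Across the 9 factors, LPS raised 6, lowered 1 and left 2 uncalled in KO cells, where 67.0% of all genes were called (35.1% higher and 32.0% lower). In WT cells it raised 7 and lowered 0, with 2 not called, where 64.7% of all genes were called (33.7% higher and 31.0% lower). The median change of the 9 was 0.39 in KO and 0.78 in WT cells. KO and WT cells in PBS differed for 6 factors, 4 higher and 2 lower in KO, where 14.1% of all genes were called (8.06% higher and 6.05% lower). After LPS they differed for 8 factors, 1 higher and 7 lower in KO, where 39.5% were called (20.0% higher and 19.5% lower). The interaction was called for 3 of the 9, all lower, where 4.31% of all genes were called (0.926% higher and 3.39% lower), and the median of the 9 was -0.46. Arrays of the compared groups did not overlap for 7 of the 9 with LPS in KO cells (72.1% of all genes), 7 with LPS in WT cells (69.4%), 7 between KO and WT in PBS (30.5%) and 8 between KO and WT after LPS (58.4%).

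**Figure D3:**
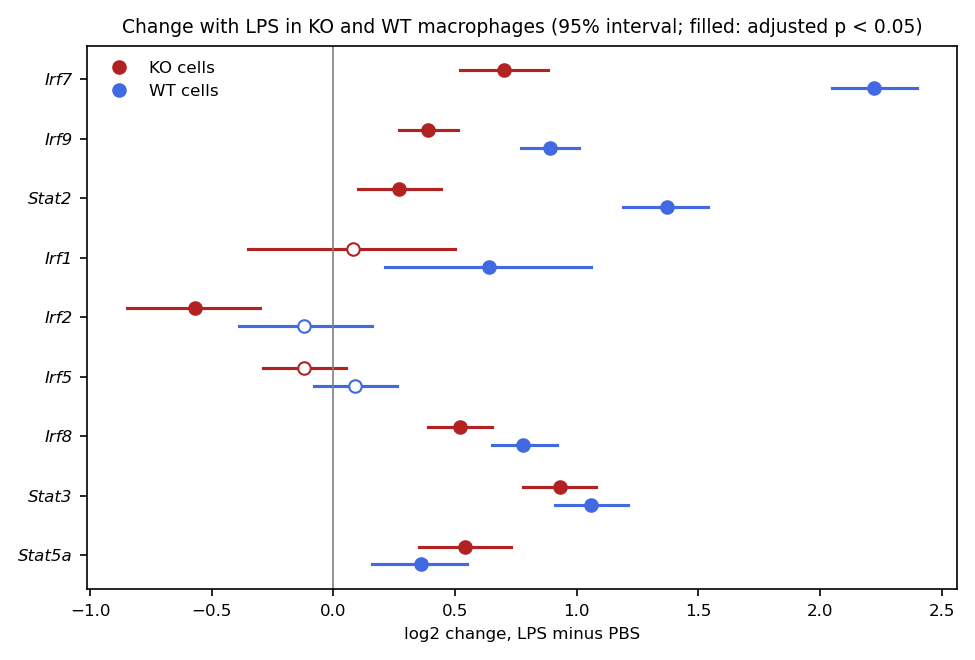
Change of each factor with LPS (x axis, log2 LPS minus PBS) in KO cells and in WT cells. Points are the limma estimates with 95% intervals, filled where the adjusted p is below 0.05; the intervals of KO and WT cells are apart for Irf7, Irf9 and Stat2, where KO cells changed less.

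Irf1 and Irf2 encode an activator and its antagonist, which compete for the same sites. Irf1 is induced by interferon-gamma and by NF-kB. Its level was 5.13, 5.21 and 4.61 on the KO LPS arrays, 4.89, 5.17 and 4.66 on the KO PBS arrays, 4.93, 5.09 and 4.37 on the WT LPS arrays and 4.14, 4.18 and 4.16 on the WT PBS arrays. WT PBS lay below every other array, and the other 3 groups overlapped. Irf1 was not called for LPS in KO cells (0.08 ± 0.19, adjusted p = 0.735) and rose by 0.64 ± 0.19 in WT cells (adjusted p = 0.0122). The call in WT cells was lost with quantile normalization (0.42) and without WT LPS replicate 2 (0.49). Irf1 was higher in KO than in WT cells in PBS by 0.75 ± 0.19, or 1.68-fold (adjusted p = 0.026), and by 0.87 on slide 1 alone (adjusted p = 0.0323). Leaving out KO PBS replicate 1 or 2 or WT PBS replicate 1 or 2 ended this call, at 0.76, 0.61, 0.74 and 0.76. KO minus WT after LPS was 0.19 ± 0.19 (adjusted p = 0.462) and the interaction -0.56 ± 0.27 (adjusted p = 0.271), with a 95% interval of -1.16 to 0.04. With the slide as a term these were 0.56 (adjusted p = 0.377) and -0.31 (adjusted p = 0.757), and LPS in KO cells gave 0.33 (adjusted p = 0.339), none called. The second Irf1 probe gave 0.79 in PBS (adjusted p = 0.0544) and -0.72 for the interaction, with 0 of its 5 comparisons called.

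Irf2 had 0.27, 0.37 and 0.42 on the KO LPS arrays, 0.86, 0.83 and 1.09 on the KO PBS arrays, 0.96, 0.97 and 0.48 on the WT LPS arrays and 0.98, 1.01 and 0.77 on the WT PBS arrays. KO LPS lay below the other 3 groups, which overlapped each other, and WT LPS replicate 3 was close to KO LPS. LPS lowered Irf2 by 1.49-fold in KO cells (-0.57 ± 0.13, adjusted p = 0.00162) and gave -0.12 ± 0.13 in WT cells (adjusted p = 0.441). The KO minus WT difference was 0.01 ± 0.13 in PBS (adjusted p = 0.968) and -0.45 ± 0.13 after LPS (adjusted p = 0.0153). With the slide as a term the difference after LPS was -0.69 and not called (adjusted p = 0.0933), and it was not called without KO LPS replicate 1, WT LPS replicate 1 or WT LPS replicate 2. The interaction was -0.46 ± 0.18 (adjusted p = 0.173), not called, and -0.62 without WT LPS replicate 3 (adjusted p = 0.0159).

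The upstream bases of both genes are shown because each holds a GAS and an NF-kB consensus match. They lie at chr11:53769764-53770013 on the plus strand for the first of 2 Irf1 starts and at chr8:46739495-46739744 on the plus strand for Irf2, in GRCm38.p6 from RefSeq, with all matches in capitals.
Irf1: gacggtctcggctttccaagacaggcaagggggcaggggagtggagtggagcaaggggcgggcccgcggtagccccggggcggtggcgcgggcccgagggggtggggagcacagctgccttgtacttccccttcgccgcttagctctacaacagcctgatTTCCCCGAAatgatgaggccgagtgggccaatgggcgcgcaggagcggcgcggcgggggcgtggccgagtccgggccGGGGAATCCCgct
Irf2: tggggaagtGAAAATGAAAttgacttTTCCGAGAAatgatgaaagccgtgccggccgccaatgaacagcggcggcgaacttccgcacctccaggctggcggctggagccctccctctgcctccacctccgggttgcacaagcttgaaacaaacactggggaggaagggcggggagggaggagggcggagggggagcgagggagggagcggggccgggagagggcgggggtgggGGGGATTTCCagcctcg
Irf1 had the GAS at bases -90 to -82 and the NF-kB match at -13 to -4. Irf2 had an ISRE at -241 to -232 on the minus strand, a GAS at -224 to -216 and an NF-kB match at -17 to -8. A GAS was found in 8.30% of all windows and in 3 of the 13, and an NF-kB match in 4.51% of all windows and in 3 of the 13.

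**Figure D4:**
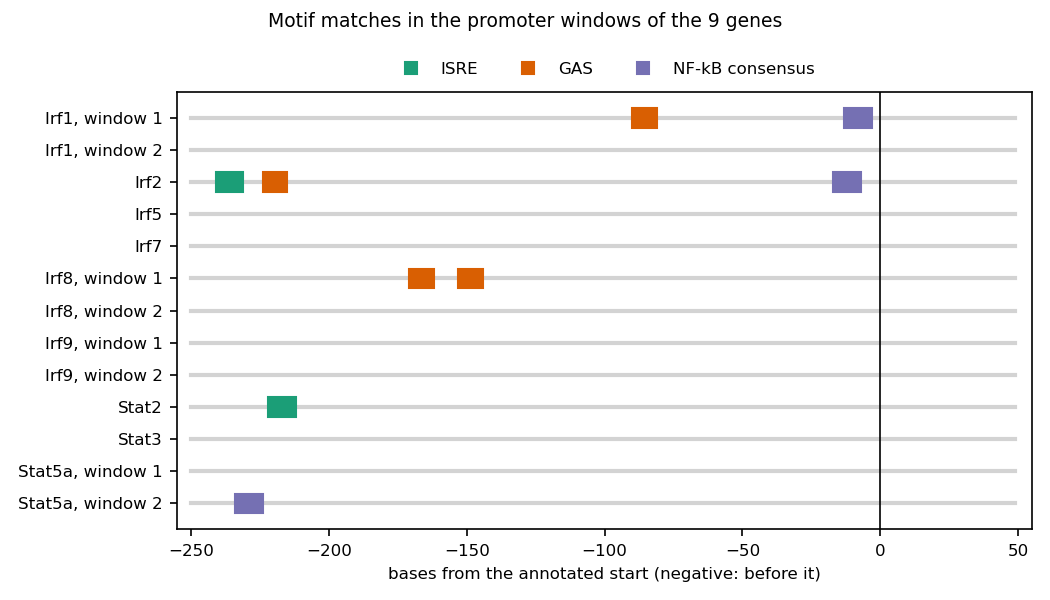
Position of each motif match (x axis, bases from the annotated start; rows, the 13 promoter windows of the 9 genes) for the ISRE, the GAS and the NF-kB consensus. Irf2 holds all 3 motifs, Irf8 holds 2 GAS, and the Irf5, Irf7, Irf9 and Stat3 windows hold none.

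A list of 16 genes driven by IRF1 or by gamma-activated sites, all measured, was described beside Irf1. This list too was chosen with earlier results of these data known. In KO cells 7 rose with LPS, 4 fell and 5 were not called (median 0.19), and in WT cells 14 rose, 1 fell and 1 was not called (median 1.41). In PBS 9 were higher and 0 lower in KO cells (median 0.49), and after LPS 1 was higher and 12 lower (median -0.46). These counts after LPS became 1 higher and 2 lower with the slide as a term (median -0.42). The interaction was called lower for 10 and higher for 0, with or without that term. Over all genes, without that term, 35.1% rose with LPS in KO and 33.7% in WT cells. Of all genes, 8.06% were higher in KO cells in PBS, 19.5% lower after LPS and 3.39% lower for the interaction. Gbp2, a GTPase of the defence against intracellular microbes, had an interaction of -1.72 ± 0.18 (adjusted p = 1.4e-04), Igtp, a GTPase of the same kind of defence, one of -1.58 ± 0.14 (adjusted p = 4.4e-05), and Gbp7 one of -1.38 ± 0.13 (adjusted p = 5.2e-05). Gbp2 stood at 3.60, 3.66 and 3.15 in KO LPS, 3.47, 3.70 and 3.40 in KO PBS, 4.24, 4.31 and 4.06 in WT LPS and 2.58, 2.61 and 2.40 in WT PBS cells. Its KO groups overlapped between the WT groups.

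Irf8, a factor of myeloid and B-cell development, and Irf5, which mediates cytokine induction by toll-like receptors, stood in other orders than Irf7. Irf8 had 4.74, 4.89 and 4.77 on the KO LPS arrays, 4.25, 4.38 and 4.20 on the KO PBS arrays, 5.25, 5.34 and 5.30 on the WT LPS arrays and 4.51, 4.57 and 4.44 on the WT PBS arrays. The groups were apart in the order WT LPS, KO LPS, WT PBS and KO PBS. LPS raised Irf8 by 0.52 ± 0.06 in KO cells (adjusted p = 1.0e-05) and by 0.78 ± 0.06 in WT cells (adjusted p = 2.8e-07). KO cells were lower than WT cells by 1.18-fold in PBS (-0.24 ± 0.06, adjusted p = 0.0235) and by 1.41-fold after LPS (-0.50 ± 0.06, adjusted p = 1.7e-04). On slide 1 alone the difference in PBS was -0.20 (adjusted p = 0.0821), and with the slide as a term that after LPS was -0.38 (adjusted p = 0.0503), neither called. The call in PBS was also lost without KO PBS replicate 1 or 3 or WT PBS replicate 1 or 2, at -0.23 to -0.20. The interaction was -0.26 ± 0.08 (adjusted p = 0.113), not called. It was -0.18 with the slide as a term (adjusted p = 0.433), -0.26 with a replicate block (adjusted p = 0.0446) and -0.30 without KO PBS replicate 3 (adjusted p = 0.0273).

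Other cell types were measured through their markers. The summed level of 8 B-cell markers was 56.8 to 58.1 in KO LPS, 110 to 117 in KO PBS, 70.4 to 84.2 in WT LPS and 133 to 169 in WT PBS cells, with all 8 well above background on every array. The B-cell sums of KO cells lay below those of WT cells under both treatments, as the Irf8 levels did, and the sums of LPS cells lay below those of PBS cells, where Irf8 rose.

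The summed level of 8 dendritic-cell markers was 188 to 192 in KO LPS, 152 to 170 in KO PBS, 182 to 220 in WT LPS and 164 to 183 in WT PBS cells, of which Siglech held 94.3% to 98.2% in each group. Without Siglech it was 3.87 to 4.06 in KO LPS, 2.90 to 2.95 in KO PBS, 6.39 to 14.9 in WT LPS and 4.20 to 4.73 in WT PBS cells. This smaller sum was lower in KO than in WT cells under both treatments and higher with LPS in both genotypes. The genes moved in opposite directions: with LPS in KO cells Cd209a, a lectin gene, rose by 1.28 ± 0.30 and Flt3, a cytokine receptor gene, by 1.60 ± 0.10, while Ccr9, a chemokine receptor gene, gave -2.48 ± 0.10, all called. Cd209a was lower in KO than in WT cells after LPS at -1.63 ± 0.30 (adjusted p = 0.00192). Its probe had the highest mean level after LPS of the genes left without Siglech, at 1.55 in KO and 3.18 in WT cells. Cd209a therefore weighed most in the smaller sum after LPS, which does not rank RNA amounts between genes. The mean level of Zbtb46 went the other way by genotype, at -2.17 in KO LPS and -2.68 in WT LPS cells, not called. Of the 5 genes tested, 3 were called lower and 0 higher in KO than in WT cells after LPS. Of all genes 19.5% were lower and 20.0% higher in that comparison. Xcr1 and Klrb1f were not well above background on any array.

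The summed level of 7 mast-cell markers was 187 to 204 in KO LPS, 98.7 to 116 in KO PBS, 240 to 262 in WT LPS and 111 to 149 in WT PBS cells. LPS lay above PBS in both genotypes and KO below WT after LPS, as for Irf8 and Stat3, while the PBS groups overlapped. Hdc, the histamine-forming enzyme gene, held 61.8% of the sum in KO LPS, 41.6% in KO PBS, 61.1% in WT LPS and 39.6% in WT PBS cells. Without Hdc the sum was 74.5 to 76.4 in KO LPS and 58.6 to 67.2 in KO PBS cells. In WT cells it was then 85.6 to 106 with LPS and 67.3 to 89.6 in PBS, so the WT groups overlapped. Of the 7 genes, 3 were called higher and 1 lower with LPS in KO cells, where 67.0% of all genes were called. In WT cells 3 were higher and 2 lower, where 64.7% of all genes were called. The part of these other cell types in the Irf8 and Stat3 results was not tested.

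The window of the first of 2 Irf8 starts, at chr8:120736108-120736357 on the plus strand in GRCm38.p6 from RefSeq, is shown because it is the one window of the 13 with 2 GAS matches, in capitals at bases -171 to -163 and -153 to -145.
Irf8: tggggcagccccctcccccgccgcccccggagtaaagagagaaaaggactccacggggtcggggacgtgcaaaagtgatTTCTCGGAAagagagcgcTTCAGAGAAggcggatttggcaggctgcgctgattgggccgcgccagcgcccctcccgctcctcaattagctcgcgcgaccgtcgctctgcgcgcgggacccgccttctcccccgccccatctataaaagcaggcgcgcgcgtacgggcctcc
The window of the other Irf8 start held no match.

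Irf5 had 2.20, 2.36 and 2.17 on the KO LPS arrays, 2.28, 2.43 and 2.38 on the KO PBS arrays, 2.43, 2.47 and 2.50 on the WT LPS arrays and 2.44, 2.49 and 2.20 on the WT PBS arrays. KO LPS lay below WT LPS, and every other pair of groups overlapped. Irf5 was not called for LPS in KO cells (-0.12 ± 0.08, 95% interval -0.29 to 0.05) or in WT cells (0.09 ± 0.08, 95% interval -0.08 to 0.26), nor between genotypes in PBS (-0.01 ± 0.08). LPS in KO cells was called lower with quantile normalization (-0.19, adjusted p = 0.0381) and with the percentile over detected probes (-0.20, adjusted p = 0.0341). After LPS it was lower in KO cells at -0.22 ± 0.08 (adjusted p = 0.0393), a call made under 12 of 23 alternatives and not with the slide as a term (-0.24, adjusted p = 0.35).

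Stat3 carries the signals of interleukin-6 and interleukin-10, and the anti-inflammatory action of interleukin-10 on macrophages depends on it. Its level was 5.24, 5.30 and 5.29 on the KO LPS arrays, 4.39, 4.38 and 4.28 on the KO PBS arrays, 5.63, 5.72 and 5.70 on the WT LPS arrays and 4.67, 4.75 and 4.45 on the WT PBS arrays. The groups were apart, in the order of Irf8. LPS raised Stat3 by 0.93 ± 0.07, or 1.90-fold, in KO cells (adjusted p = 2.6e-07) and by 1.06 ± 0.07, or 2.08-fold, in WT cells (adjusted p = 6.8e-08). The interaction was -0.13 ± 0.10 (adjusted p = 0.462), with a 95% interval of -0.34 to 0.08, beside one of -1.77 to -1.27 for Irf7. Stat3 was lower in KO than in WT cells at -0.28 ± 0.07 in PBS (adjusted p = 0.0204) and -0.41 ± 0.07 after LPS (adjusted p = 0.00118). Neither held with the slide as a term, at -0.24 (adjusted p = 0.0514) and -0.30 (adjusted p = 0.165), and on slide 1 alone the difference in PBS was -0.24 (adjusted p = 0.112). The call in PBS was also lost without KO PBS replicate 3, WT PBS replicate 1 or WT PBS replicate 2, at -0.25 to -0.21.

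The 2 Stat3 probes, matched to different RefSeq transcripts, did not give the same genotype result. The second one had 0.12, 0.07 and 0.07 in KO LPS, -0.90, -0.97 and -0.91 in KO PBS, 0.06, -0.23 and 0.19 in WT LPS and -0.77, -0.75 and -0.74 in WT PBS cells. It rose with LPS by 1.01 ± 0.09 in KO and 0.76 ± 0.09 in WT cells, and KO minus WT after LPS was 0.08 ± 0.09 (adjusted p = 0.497). The rise of Stat3 with LPS was therefore seen with both probes and its lower level in KO cells after LPS with 1 of 2.

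Of 10 STAT3 targets, all measured, 10 rose with LPS in KO cells (median 1.53) and 10 in WT cells (median 1.65). Over all genes 35.1% and 33.7% rose. In PBS 1 of the 10 was higher and 2 lower in KO than in WT cells (median -0.29), where 14.1% of all genes were called. After LPS 0 were higher and 2 lower (median -0.17), where 39.5% of all genes were called. The 2 were Il4ra at -0.81 ± 0.11 and Timp1 at -0.73 ± 0.22, and with the slide as a term 0 of the 10 were called. The interaction was called for 1, Tnfrsf1b, a TNF receptor gene, at -0.33 ± 0.07 (adjusted p = 0.0238, and 0.114 with the slide as a term), and the median was -0.03. Il10, which encodes interleukin-10, had 3.07, 3.11 and 2.92 in KO LPS, 0.31, 0.65 and 0.21 in KO PBS, 3.07, 3.06 and 2.93 in WT LPS and 0.32, 0.38 and 0.18 in WT PBS cells. Its genotypes overlapped under each treatment. It rose by 2.64 ± 0.10 in KO and 2.73 ± 0.10 in WT cells, and Myc, a growth regulator, by 2.50 ± 0.07 and 2.27 ± 0.07.

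**Figure D5:**
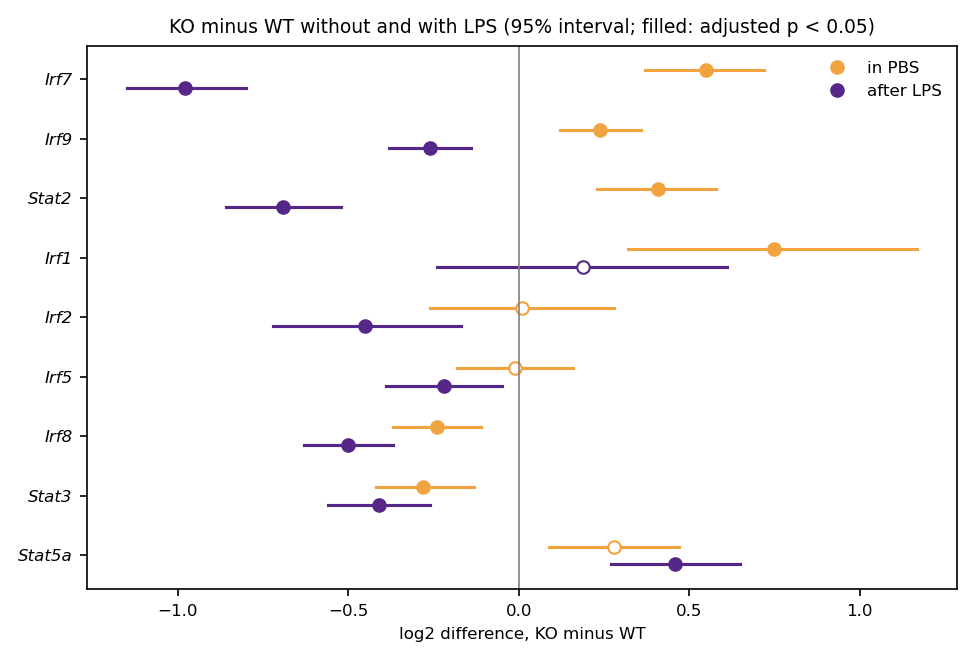
Difference between genotypes for each factor (x axis, log2 KO minus WT) in PBS and after LPS. Points are limma estimates with 95% intervals, filled where the adjusted p is below 0.05; Irf7, Irf9 and Stat2 lie above 0 in PBS and below 0 after LPS, Irf8 and Stat3 below 0 in both, and Stat5a above 0 in both with 1 of 2 called.

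Stat5a, which carries the signals of GM-CSF in macrophages, was the one factor of the 9 called higher in KO cells after LPS. Its level was 3.19, 3.16 and 3.09 on the KO LPS arrays, 2.50, 2.50 and 2.82 on the KO PBS arrays, 2.63, 2.59 and 2.84 on the WT LPS arrays and 2.28, 2.31 and 2.39 on the WT PBS arrays. KO LPS was highest and WT PBS lowest, and KO PBS and WT LPS overlapped between them. LPS raised Stat5a by 0.54 ± 0.09 in KO cells (adjusted p = 2.0e-04) and by 0.36 ± 0.09 in WT cells (adjusted p = 0.00356), with an interaction of 0.18 ± 0.13 (adjusted p = 0.435, 95% interval -0.09 to 0.45). The response in KO cells was 0.32 and called both with the slide as a term (adjusted p = 0.0102) and on slide 2 alone (adjusted p = 0.00129). KO minus WT was 0.28 ± 0.09 in PBS (adjusted p = 0.0559), not called, and 0.46 ± 0.09 after LPS (adjusted p = 0.00248). The difference in PBS was called under 5 of 24 alternatives, the replicate block among them (adjusted p = 0.0368), and was 0.17 and not called on slide 1 alone (adjusted p = 0.198) or with the slide as a term (adjusted p = 0.123). The difference after LPS was 0.14 and not called with the slide as a term (adjusted p = 0.509), and KO PBS replicate 3, the one PBS array on slide 2, had the highest KO PBS level.

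The second Stat5a probe had 3.05, 3.03 and 2.84 in KO LPS, 1.31, 1.29 and 1.30 in KO PBS, 2.51, 2.45 and 2.59 in WT LPS and 1.16, 1.15 and 1.09 in WT PBS cells. It rose with LPS by 1.67 ± 0.06 in KO and 1.38 ± 0.06 in WT cells, and KO minus WT after LPS was 0.46 ± 0.06 (adjusted p = 4.2e-04 over all kept probes). Stat5a has a near-identical neighbour, Stat5b, and how far either probe tells them apart was not tested. Stat5b gave -0.02 in KO cells with LPS (not called) and fell by 0.29 in WT cells, and it was higher in KO than in WT cells after LPS by 0.26, a difference of 0.05 and not called with the slide as a term (adjusted p = 0.779). Of 7 STAT5 targets, 6 rose and 1 fell with LPS in KO cells, and 5 rose and 1 fell in WT cells, where 67.0% and 64.7% of all genes were called. The cyclin gene Ccnd2 rose by 2.96 ± 0.11 in KO and 3.02 ± 0.11 in WT cells, and Cish, a feedback inhibitor of STAT5 that is also counted among the inhibitors below, by 1.35 ± 0.08 and 1.01 ± 0.08. In PBS 0 of the 7 were higher and 2 lower in KO than in WT cells, where 14.1% of all genes were called. After LPS 2 were higher, Cish at 0.31 ± 0.08 and Socs2 at 0.28 ± 0.10, and 1 lower, Id1 at -0.85 ± 0.25. Of all genes 39.5% were called between KO and WT cells after LPS. With the slide as a term 0 of the 7 were called after LPS. The interaction was called for 0 of the 7 by limma, beside 4.31% of all genes.

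Irf3, Irf4, Stat4 and Stat6 of the same families were read beside the 9. Irf3, which TLR4 signalling activates first, gave 0.03 with LPS in KO cells (not called), rose by 0.21 ± 0.06 in WT cells and was lower in KO cells after LPS at -0.37 ± 0.06 (adjusted p = 0.00113), or -0.13 and not called with the slide as a term (adjusted p = 0.27). A second Irf3 probe rose with LPS in KO cells by 0.39 ± 0.09 (adjusted p = 0.00231) and gave 0.11 ± 0.09 for KO minus WT after LPS (adjusted p = 0.35), so the probes did not give the same result. Irf4, a factor of alternative macrophage activation, rose with LPS by 1.61 in KO and 1.68 in WT cells, with an interaction of -0.06. Stat4 rose by 0.69 in KO and 0.73 in WT cells and was lower in KO cells at -0.46 in PBS and -0.50 after LPS. Stat6, the interleukin-4 factor, rose by 0.21 in WT cells and gave 0.08 in KO cells, not called.

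Receptors, kinases and inhibitors around these factors were read in the same way. Of 14 receptor and kinase genes, 6 rose and 4 fell with LPS in KO cells and 5 rose and 4 fell in WT cells, where 67.0% and 64.7% of all genes were called. The interaction was called for 1 of the 14, beside 4.31% of all genes. That was Jak2, a kinase of the interferon-gamma and GM-CSF receptors, which had 3.84, 3.99 and 3.78 in KO LPS, 2.26, 2.32 and 2.06 in KO PBS, 4.05, 4.00 and 4.10 in WT LPS and 1.93, 1.90 and 2.01 in WT PBS cells, with an interaction of -0.44 ± 0.10 (adjusted p = 0.0303). Of 11 measured genes between TLR4 and the IRFs, 5 rose and 4 fell in KO cells and 6 rose and 3 fell in WT cells. Their called interactions were those of the adaptor gene Myd88 (-0.29 ± 0.07, adjusted p = 0.0319) and of Tbk1, which encodes the kinase of IRF3 (-0.35 ± 0.08, adjusted p = 0.0324). Tlr4 itself was higher in KO cells after LPS by 0.51 ± 0.10 (adjusted p = 0.00272). None of these 3 interactions was called with the slide as a term (Jak2 at -0.29, adjusted p = 0.192, Myd88 at -0.23, adjusted p = 0.157, and Tbk1 at -0.30, adjusted p = 0.163), nor was the Tlr4 difference (0.42, adjusted p = 0.212).

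Of 14 inhibitors, 8 rose and 3 fell with LPS in either genotype, where 67.0% of all genes were called in KO and 64.7% in WT cells. The interaction was called for 2 of the 14, beside 4.31% of all genes. Usp18, which blocks the interferon receptor and is itself an ISGF3 target, had 3.54, 3.52 and 3.48 in KO LPS, 2.89, 2.62 and 2.82 in KO PBS, 4.70, 4.72 and 4.51 in WT LPS and 1.72, 1.61 and 2.08 in WT PBS cells. Its groups were apart in the order of Irf7, with an interaction of -2.10 ± 0.16 (adjusted p = 2.4e-05). Trim21, a ubiquitin ligase gene that interferon induces, had an interaction of -0.84 ± 0.14 (adjusted p = 0.00321). Both were also called with the slide as a term, at -2.15 and -0.98.

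For each factor the genes with the most similar profile were found by the root mean square difference of centred levels over the 12 arrays, among 11105 genes. Nearest to Irf7 were Oasl2 at 0.111, Phf11b at 0.116 and Xaf1 at 0.124, against a spread of Irf7 about its own mean of 0.836. Oasl2, an interferon-induced gene, had an interaction of -1.68 ± 0.10. Nearest to Stat2 was Ube2l6, the conjugating enzyme for ISG15, at 0.079, then Znfx1 at 0.0889, and nearest to Irf9 was Trim26 at 0.0671, then Map2k1 at 0.0775. Stat3 had Ndufaf4 at 0.0591 and Tax1bp1 at 0.0632, Irf8 had Eif3g at 0.066, Stat5a had Aanat at 0.0523, Irf2 had Slc6a6 at 0.104 and Irf5 had Copz1 at 0.0595. For Irf1 the nearest was Cyria at 0.233. These compare with spreads about the own mean of 0.505 for Stat2, 0.348 for Irf9, 0.530 for Stat3, 0.385 for Irf8, 0.310 for Stat5a, 0.274 for Irf2, 0.113 for Irf5 and 0.400 for Irf1.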

How the data were processed

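RNA of 12 cell samples was labelled with Cy3 and read on 12 one-colour arrays. The deposited files hold a processed signal intensity per spot with background and quality values, made per the file headers with Agilent Feature Extraction, version 11.5.1.1 per the submitters' processing notes. The log2 of that deposited intensity, minus the array's 75th percentile over 59305 non-control spots, was computed here. Spots marked as nonuniform or population outliers (76 to 125 per array) were left out where the probe had an unmarked spot on that array, and kept otherwise. The spots of a probe that remained were averaged.

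Of 56605 probes, 32994 (58.29%) were named through RefSeq accessions of GRCm38.p6. The array design uses an earlier build, so no array positions are given. A probe was kept if all 3 arrays of some group had it well above background (28827 probes), and the brightest named a gene (13283 genes). A model with 4 group means was fitted in limma 3.58.1 under R 4.3.3 with a mean-variance trend, two-sided, with Benjamini-Hochberg adjustment over all genes at 0.05. It was also run on simulated data, whose settings and outcome are not reported here, so no conclusion is drawn from them. The members, gene lists and marker lists were chosen with earlier results of these data known. From each pathway or target list up to 3 called genes per comparison with the smallest p could be named.

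Groups and replicate numbers come from the sample titles. Residuals of equal numbers correlated at 0.105, 0.371 and 0.481 for LPS in WT cells, which met the pairing rule (every pair above 0.1). They correlated at 0.04, 0.113 and 0.081 for LPS in KO cells, which did not meet it. KO against WT gave -0.042, -0.068 and -0.102 in PBS and 0.017, -0.003 and -0.045 after LPS, which did not meet it either. Unequal numbers were not compared, and the WT arrays shared slide 1, so pairing was not established. The main fit used no pairing, and the replicate block applied the numbers to all groups. No array copied another: the median difference between replicates was 0.0689 to 0.197 and between groups 0.142 to 0.461. Alternatives were normexp background correction (offset 50), 2 other scalings, 2 other filters, marked spots kept, the mean of all probes, no variance trend, the compared groups alone, the slide as a term or 1 slide alone, a replicate block, and each array left out. The files used here list no mean signal, so normexp used the median signal, a change chosen after seeing the data, as were slide 2 alone, the fit of every probe and the lists with the slide settings. Results of some other genes of both families are not reported here.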

Additional observations from a re-analysis of the deposited data

Results flagged for a closer look

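The LPS response differed between genotypes, by the test of the difference itself, for 3 of the 9 factors. The response in KO cells less that in WT cells was -1.52 for Irf7, -0.50 for Irf9 and -1.09 for Stat2 on the log2 scale, with limma adjusted p-values of 2.4e-05, 0.00223 and 1.1e-04. With the slide as a term the values were -1.54, -0.60 and -1.12, all called.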

How the results depend on the processing

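The interactions of Irf7, Irf9 and Stat2 were called in the same direction under all 22 alternatives, at -1.61 to -1.44, -0.60 to -0.43 and -1.19 to -1 on the log2 scale. KO against WT after LPS depended most on the slide, with 776 genes and 3 factors called with the slide as a term, against 5242 and 8 without it. KO against WT in PBS gave 1874 genes and 6 factors, against 799 and 3 in a fit of the compared groups alone and 1087 and 3 on slide 1 alone. Leaving out each array in turn gave 917 to 2579 genes and 2 to 7 factors there (917 and 2 without WT PBS replicate 1, 1043 and 2 without WT PBS replicate 2), 3762 to 6111 genes and 6 to 8 factors after LPS, 7896 to 9434 genes and 7 factors for LPS in KO cells, 7935 to 9170 genes and 6 to 7 factors for LPS in WT cells, and 360 to 2797 genes and 3 to 4 factors for the interaction. The interaction count was 573 in all arrays, 2797 without KO PBS replicate 3, 960 without WT PBS replicate 3, 365 without KO LPS replicate 1, 361 without KO PBS replicate 1 and 360 without WT PBS replicate 1. With the replicate block, 8967, 8599, 1941, 5214 and 576 genes were called for LPS in KO, LPS in WT, KO against WT in PBS, KO against WT after LPS and the interaction. The block made calls of Stat5a in PBS (0.28, adjusted p = 0.0368) and of the Irf8 interaction (-0.26, adjusted p = 0.0446), and it changed no other call of the 9 factors. Taking the percentile over probes detected on all arrays moved the share of higher calls to 40.5% for LPS in WT cells, against 52.1%, and to 35.3% for the interaction, against 21.5%. Quantile normalization moved it to 47.1% for KO against WT in PBS, against 57.1%. All values that changed sign were uncalled in the fit of all arrays. For LPS in KO cells Irf1 gave -0.10 with quantile normalization, -0.04 with the mean of all probes and -0.05 to 0.27 with an array left out (lowest without KO PBS replicate 3, and -0.04 without KO LPS replicate 2). For LPS in WT cells Irf5 gave -0.02 with quantile normalization and -0.03 with the percentile over detected probes, and Irf2 -0.20 to 0.05 with an array left out (highest without WT LPS replicate 3). For KO against WT in PBS Irf2 gave -0.02 with normexp, -0.01 with either other scaling, -0.07 with the slide as a term or on slide 1 alone and -0.07 to 0.06 with an array left out, and Irf5 gave 0.00 with normexp and -0.10 to 0.05 with an array left out (0.03 without KO PBS replicate 1, 0.02 without WT PBS replicate 1). For KO against WT after LPS Irf1 gave -0.03 to 0.38 with an array left out (lowest without WT LPS replicate 3). The interaction of Stat3 was 0.06 with the mean of all probes and that of Stat5a -0.03 with the slide as a term. The cause of these changes was not tested. Limits are the 3 arrays per group, replicates of unstated origin, 1 PBS array of KO cells on the slide of the KO LPS arrays, no array of WT cells there, and genotypes that also part by sex-linked genes.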
